A study of Homo sapiens with 28 samples.

Results

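The RNA response to vitamin D alone was examined in EPC2 cells, an immortalised human esophageal epithelial cell line. The members were the genes with at least 1 RPKM (read density scaled to gene length and library size) in untreated or in vitamin D-treated cells, and 11381 of the 23533 genes in the table met that rule. Both groups had 3 RNA samples each, of 28 samples in the series. Untreated cells received no agent, and vitamin D-treated cells received 100 nM vitamin D for 6 h, after seeding at high density the day before. The labels name neither the form of vitamin D nor whether the 3 samples of a group were separate cultures, so the deposited p-values may measure technical spread only. The table held 1 RPKM value per group, so no spread between samples could be computed and depth per sample is unknown. Fold changes and adjusted p-values are those of the authors' deposited table throughout, and a gene is described as having risen or fallen only where its deposited adjusted p was at most 0.05. As a second reading, RPKM values were used from cells given IL-13 at 100 ng/ml, without and with 100 nM vitamin D for 6 h, whose 6 libraries belong to neither group compared. ChIP-seq, which maps where proteins or histone marks lie on DNA, was available with 1 library each for VDR and 3 histone marks in untreated and in vitamin D-treated cells.

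Vitamin D acts through the vitamin D receptor VDR, a nuclear receptor that pairs with a retinoid X receptor such as RXRA and binds DNA, most tightly at direct repeats of a short half-site separated by a spacer. In epithelia the receptor is known for inducing its own negative feedback, in which CYP24A1 inactivates the hormone, and for acting on innate immune genes and on the differentiation of stratified cells. All 13 of the squamous epithelial markers examined, KRT5, KRT14, TP63 and the desmosomal cadherin gene DSG3 among them, reached 1 RPKM, with untreated levels from 10.5 to 16009 RPKM. Of the leukocyte markers, 1 of 17 in the table was a member, the lysosomal gene CD68, which is not restricted to leukocytes, and 9 were listed at 0 in untreated cells, the pan-leukocyte gene PTPRC among them. The fibroblast markers had 2 of 12 members, VIM at 104 RPKM and COL1A1 at 15.2 RPKM in untreated cells. The endothelial markers had 1 of 9, VWF, and the melanocyte markers 0 of 7. Of the columnar epithelium markers, 2 of 14 in the table were members, KRT8 at 221 RPKM and KRT18 at 43.0 RPKM untreated. In bulk RNA, fewer cells of a kind and less RNA per cell cannot be told apart.

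A large share of the tested genes was called different between vitamin D-treated and untreated cells, most of them by a small amount. Of 11370 members tested, 4482 (39.4%) passed the threshold in the authors' deposited table. Of these, 2449 (21.5% of those tested) were higher and 2033 (17.9%) lower. The median size of a called change was 0.25 on the log2 scale, and 2851 calls (63.6% of them) were below 1.25-fold. A change of at least 2-fold was called for 150 genes upwards (1.32%) and 56 downwards (0.493%). Of these, 42 and 21 met the membership rule only through the group in which they were higher. The upward tail was longer: 27 genes rose and 4 fell by at least 4-fold, and 8 rose and 0 fell by at least 8-fold. Larger calls of both directions were found at every level of expression, while the share of genes called rose with the level, from 30.0% of genes that reached 1 to 5 RPKM to 69.2% of those above 100 RPKM. Among the latter, 277 were called higher and 80 lower. The balance differed with level. At 1 to 5 RPKM 399 were higher and 637 lower, at 5 to 20 RPKM 943 and 908, and at 20 to 100 RPKM 830 and 408. The shares over all tested genes take no account of level. At the edge of the membership rule, B9D2 stood just inside, at 1.00 RPKM untreated and 0.958 RPKM with vitamin D, and MEGF6 just outside, at 0.900 and 0.999 RPKM. The 11 members that were not tested were small RNA genes.

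**Figure D1:**
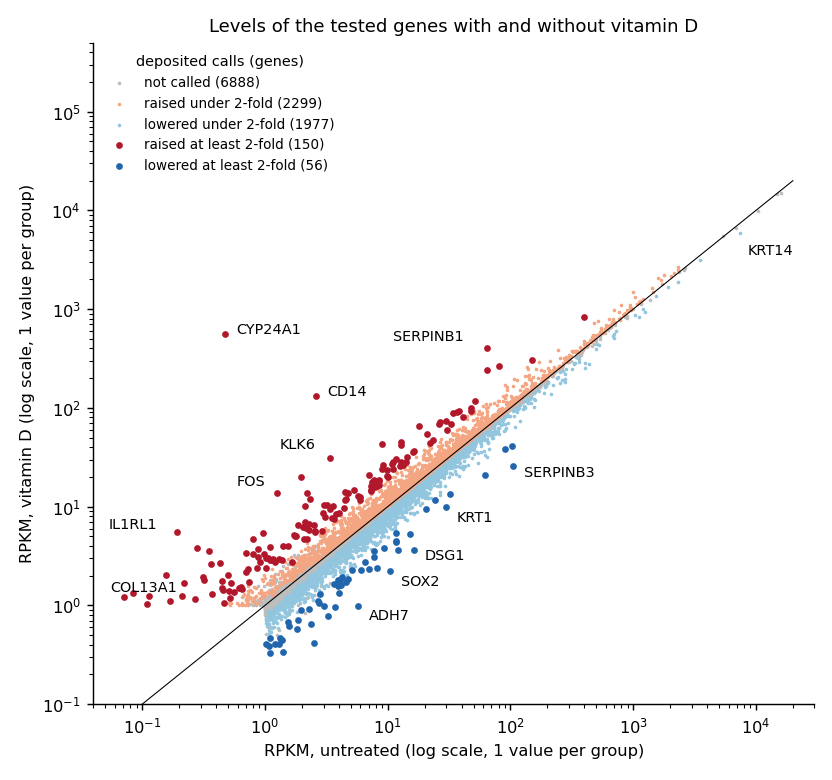
RPKM with vitamin D against RPKM in untreated cells for the 11370 tested genes, both on log scales, with 1 point per gene coloured by its deposited call and a line of equal levels. CYP24A1 and CD14 stand farthest above the line, and ADH7, SOX2, DSG1 and SERPINB3 are among the genes below it.

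The vitamin D pathway itself showed 1 very large rise beside small changes. CYP24A1, whose enzyme inactivates vitamin D, stood at 0.476 RPKM in untreated cells and at 560 RPKM in treated cells, the largest gain on the linear scale as well. The receptor genes moved little and downwards. VDR stood at 9.12 RPKM untreated and 7.62 RPKM treated, a log2 fold change of -0.20 in the authors' deposited table (adjusted p = 0.000116), and RXRA at 26 and 23 RPKM, a change of -0.11 there (adjusted p = 0.0302). CYP2R1, which makes 25-hydroxyvitamin D, changed by -0.25 in the authors' deposited table (adjusted p = 0.00746). CYP27B1, which makes the active hormone, stood at 2.52 and 2.24 RPKM and did not pass (adjusted p = 0.52 in the authors' deposited table). The coactivator gene NCOA3 fell, with a log2 fold change of -0.19 in the authors' deposited table. Of 16 tested genes of vitamin D reception and metabolism, 3 rose (18.8%) and 6 fell (37.5%). The shares over all tested genes were 21.5% and 17.9%.

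Known VDR targets rose as a group. Of 29 tested, 24 rose and 2 fell, with a median of 0.62 on the log2 scale against 0.00 over all tested genes, where 21.5% rose and 17.9% fell. The list is made of genes known from earlier work to respond, so its direction is no independent evidence. Beyond CYP24A1 they included CD14, a receptor for bacterial lipopolysaccharide, at 2.62 RPKM untreated and 132 RPKM treated, and the serine protease gene KLK6 at 3.40 and 31.1 RPKM. The neutrophil protease inhibitor gene SERPINB1 went from 64.0 to 407 RPKM, and EFTUD1, whose protein acts in ribosome maturation, from 8.94 to 43.1 RPKM. CAMP, which encodes the antimicrobial peptide cathelicidin, went from 0.363 to 2.60 RPKM, and the myeloid receptor gene TREM1 from 0.313 to 1.92 RPKM. The phosphatase gene DUSP10 went from 26 to 69.1 RPKM and the growth factor binding protein gene IGFBP3 from 108 to 194 RPKM. BGLAP, the osteocalcin gene, rose from 0.0842 to 1.32 RPKM, and its log2 fold change of 1.41 in the authors' deposited table lies below that of its RPKM values. BGLAP overlaps the readthrough gene PMF1-BGLAP, so the share of reads that belongs to it is uncertain. The 2 targets that fell were CDKN1A, a cell cycle inhibitor gene, and TXNIP, which was looked up after its value was seen and encodes an inhibitor of thioredoxin. They changed by -0.25 and -0.62 in the authors' deposited table.

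VDR ChIP-seq placed the receptor near many of the genes that rose. The vitamin D library had 9224 VDR regions and the untreated library 1828, and 1571 of the former overlapped one of the latter by at least 1 base. A region of the vitamin D library lay within 25 kb of the start of 70.0% of the genes raised at least 2-fold (105 of 150, Wilson 95% interval 62.2 to 76.8%). The share was 51.3% of genes raised less (49.3 to 53.4%), 24.5% of genes not called (23.5 to 25.5%), 21.6% of genes lowered less (19.9 to 23.5%) and 10.7% of genes lowered at least 2-fold (6 of 56, 5.0 to 21.5%). These intervals cover counting error over genes only, with 1 library per condition and no replicate check. The median distance from a gene's start to the nearest region was 8.61 kb for genes raised at least 2-fold, 77.7 kb for genes not called and 114 kb for genes lowered at least 2-fold. Seen from the regions, 62.3% of the 329 genes with 3 or more regions within 25 kb rose and 6.99% fell. Of the 4261 genes with none within 100 kb, 9.5% rose and 22.6% fell. The classes also differed in expression, with untreated medians of 2.76 RPKM for genes raised at least 2-fold, 15.1 RPKM for genes raised less and 7.78 RPKM for genes not called. Among genes at 1 to 5 RPKM in untreated cells the shares were 60.8% of 51 genes raised at least 2-fold (47.1 to 73.0%) and 50% of 392 raised less (45.1 to 54.9%), with overlapping intervals, 22.6% of 2369 not called and 9.38% of 32 lowered at least 2-fold. Among genes at 5 to 20 RPKM the shares were 73.0% of 37 genes raised at least 2-fold, 48.4% of 880 raised less, 23.5% of 3010 not called and 6.25% of 16 lowered at least 2-fold.

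**Figure D2:**
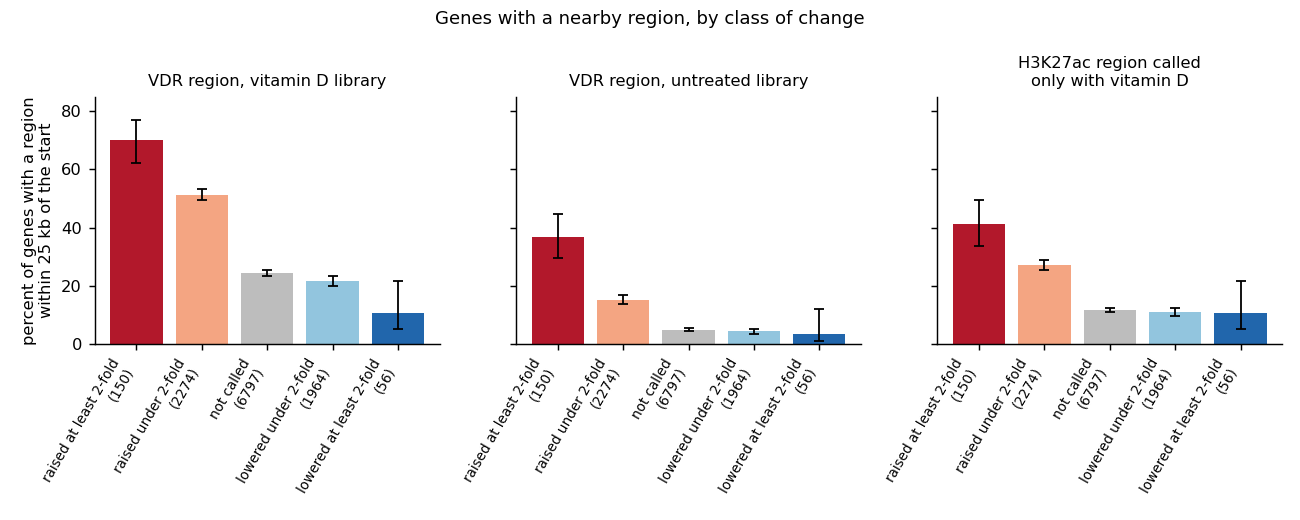
Percent of genes with a region within 25 kb of the start, by class of deposited change, with the number of genes in parentheses and Wilson 95% intervals (counting error only) as bars. The genes raised at least 2-fold have the highest share for VDR regions with vitamin D (70.0%), VDR regions of untreated cells (36.7%) and H3K27ac regions called only with vitamin D (41.3%).

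The same order of classes was already present in untreated cells at lower shares. A VDR region of the untreated library lay within 25 kb of 36.7% of genes later raised at least 2-fold (29.4 to 44.6%), 15.2% of genes raised less, 4.83% of genes not called and 3.57% of genes lowered at least 2-fold. H3K27ac, a mark of active enhancers and promoters, was called in 4640 regions of the vitamin D library that overlapped none of the untreated library. Such a region lay within 25 kb of 41.3% of genes raised at least 2-fold (33.8 to 49.3%), 27% of genes raised less, 11.6% of genes not called and 10.7% of genes lowered at least 2-fold (5.0 to 21.5%). The untreated H3K27ac list was the longer, with 91881 regions against 67183, so a region absent from one list may reflect how much was called there. H3K4me3, a mark of active gene starts, lay within 1 kb of the start of 68.0% of genes raised at least 2-fold in the untreated library and of 68.7% in the vitamin D library. Over all tested genes these shares were higher, 91.0% and 91.1%. For genes lowered at least 2-fold H3K4me3 lay there for 62.5% (49.4 to 74.0%) and 67.9% (54.8 to 78.6%), with overlapping intervals. H3K9ac, a mark of active chromatin, lay there for 62.7% of genes raised at least 2-fold untreated (54.7 to 70.0%) and 68.7% with vitamin D (60.9 to 75.5%), with overlapping intervals. H3K9ac regions called only with vitamin D lay within 1 kb of the start of 26.7% of genes raised at least 2-fold, 17.2% of genes not called and 23.2% of genes lowered at least 2-fold. For H3K4me3 these shares were 3.33%, 0.736% and 8.93%, the last being 5 of 56 genes (3.87 to 19.3%). The interval for raised genes, 1.43 to 7.57%, overlapped it.

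Single genes show the range of these distances. CYP24A1 (chromosome 20, 52769988 to 52790516, hg19, minus strand) had 12 VDR regions within 100 kb of its start with vitamin D. One covered the start (chr20:52790132-52791434, the authors' fold enrichment over background 23.9). The strongest (chr20:52739601-52741259, fold enrichment 111) had its summit 50.2 kb from the start, past the far end of the gene. Regions covered the starts of CD14 (fold enrichment 26.1), the adhesion receptor gene CD97 (61.6), EFTUD1 (68.0) and TXNRD1 (91.4), the thioredoxin reductase gene. Counted in bases from the gene start, with negative values upstream, the summit at CAMP lay at -462 with a fold enrichment of 120. The nearest summit to FOS, the immediate early transcription factor gene, lay at -24153 with a fold enrichment of 84.1. DDIT4, which encodes an inhibitor of mTOR complex 1, had 11 regions within 25 kb and went from 513 to 763 RPKM. The genes with the largest falls had no VDR region within 25 kb in 24 of 25 cases. ADH7 lay 222 kb from the nearest region and SOX2 1026 kb. SERPINB13 was the exception, with a weak region (fold enrichment 4.33) whose summit lay at -714.

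Promoter sequence was read from RefSeq (GRCh38.p14) to show what lies at 3 starts that have a VDR region over or beside them, and at the raised gene whose promoter holds a direct repeat. The 250 bases before the start are printed 5′ to 3′ on the gene's strand, with capitals marking VDR half-sites on both strands. The letters searched were AGGTCA, known as a half-site of many nuclear receptors besides this one, and its variant forms, which were AGTTCA in the searches of both strands, then GGGTCA in the same searches of both strands, and finally GGTTCA. The direct repeat with 3 bases between (DR3) searched here is made of a pair of these hexamers.
CYP3A5: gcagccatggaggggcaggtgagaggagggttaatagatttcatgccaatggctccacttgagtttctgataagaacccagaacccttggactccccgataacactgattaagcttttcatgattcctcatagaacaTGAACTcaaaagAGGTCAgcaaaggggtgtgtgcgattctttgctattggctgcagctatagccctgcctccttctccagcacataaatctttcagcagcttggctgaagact
TREM1: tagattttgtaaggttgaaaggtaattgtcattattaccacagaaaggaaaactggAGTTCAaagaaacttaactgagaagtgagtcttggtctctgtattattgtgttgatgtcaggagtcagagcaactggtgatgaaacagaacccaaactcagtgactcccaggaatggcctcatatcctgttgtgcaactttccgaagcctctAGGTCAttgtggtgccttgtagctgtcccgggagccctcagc
SERPINB1: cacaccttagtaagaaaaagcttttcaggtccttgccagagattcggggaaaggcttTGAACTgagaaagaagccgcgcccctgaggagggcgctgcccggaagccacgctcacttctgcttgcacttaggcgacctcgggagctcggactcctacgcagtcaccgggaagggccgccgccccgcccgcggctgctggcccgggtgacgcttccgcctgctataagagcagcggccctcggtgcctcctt
CEACAM6: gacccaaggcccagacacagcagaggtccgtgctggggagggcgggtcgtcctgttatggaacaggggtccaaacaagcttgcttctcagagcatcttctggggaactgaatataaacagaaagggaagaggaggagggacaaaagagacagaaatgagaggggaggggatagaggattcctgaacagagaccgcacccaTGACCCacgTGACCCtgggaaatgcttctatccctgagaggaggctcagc
CYP3A5 encodes a cytochrome P450 of drug and steroid oxidation and went from 4.59 to 12 RPKM. Its printed bases lie at chr7:99679997-99680246 (minus strand, GRCh38.p14), with hexamers starting at -113 and -101, counted from the start, and 6 bases between them. These hexamers lie on opposite strands, so the pair is not a direct repeat. Pairs in other arrangements were not counted here. The VDR region over the CYP3A5 start (chr7:99277526-99277873, hg19) had its summit at -37 from the gene start listed in the RNA table. The TREM1 bases (chr6:41286683-41286932, minus strand, GRCh38.p14) hold hexamers at -194 and -42, and the summit there lay at -199 from the listed start. The SERPINB1 bases (chr6:2841864-2842113, minus strand, GRCh38.p14) hold 1 hexamer at -193. The nearest summit lay at -114 from the listed start, in a weak region (fold enrichment 4.48), and a stronger region (34.1) lay within 25 kb. The printed starts all hold hexamers, but starts with stronger regions went both ways. CAMP (fold enrichment 120), TXNRD1 (91.4) and EFTUD1 (68.0) held 0 in these 250 bases, and BGLAP (80.6) and CD14 (26.1) held 1 each. CEACAM6, a cell adhesion gene that went from 7.95 to 16.3 RPKM, was the 1 gene, of the 111 raised at least 2-fold with a RefSeq promoter entry, whose promoter (chr19:41755280-41755529, plus strand, GRCh38.p14) held the direct repeat, at -50 and -41. Its nearest VDR region lay 19.2 kb away. The other raised genes, CYP24A1 and CD97 among them, were not searched here.

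The hexamers themselves were common, so their presence says little on its own. At least 1 lay in the upstream 250 bases of 34.0% of 27305 RefSeq promoters. The share was 36.0% of the 111 matched genes raised at least 2-fold, 28.0% of genes raised less, 28.1% of genes not called and 27.9% of the 43 matched genes lowered at least 2-fold. Among the raised genes that also had a VDR region within 250 bases of the start, 14 of 24 matched promoters (58.3%) held one, against 105 of 239 (43.9%) for genes not called with such a region, 59 of 172 (34.3%) for genes raised less and 15 of 49 (30.6%) for lowered genes. The DR3 element lay in 18 of all promoters (0.0659%). A match is a description of letters, not a bound site.

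IL1RL1, the IL-33 receptor gene, stood at 0.192 RPKM untreated and 5.51 RPKM treated. FOS went from 1.2 to 13.8 RPKM, and DHRS9, a retinol and steroid dehydrogenase gene, from 1.95 to 19.9 RPKM. SLC6A12, a betaine and GABA transporter gene, went from 0.156 to 2.04 RPKM, and CYTH4, which encodes an exchange factor for ARF GTPases, from 0.0715 to 1.22 RPKM. CD97 went from 2.21 to 13.8 RPKM. SEMA6D, a semaphorin gene, went from 0.795 to 4.68 RPKM, and CILP, a matrix protein gene of cartilage, from 2.31 to 12 RPKM. GCNT3, a mucin-type glycosyltransferase gene, went from 0.969 to 5.36 RPKM, and the metalloproteinase gene ADAMTS15 from 2.13 to 10.2 RPKM. For ADRA1B, an adrenergic receptor gene, the size is uncertain: the authors' deposited table gave 2.26 and the log2 ratio of its RPKM values with 0.1 added to each was 3.39.

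**Figure D3:**
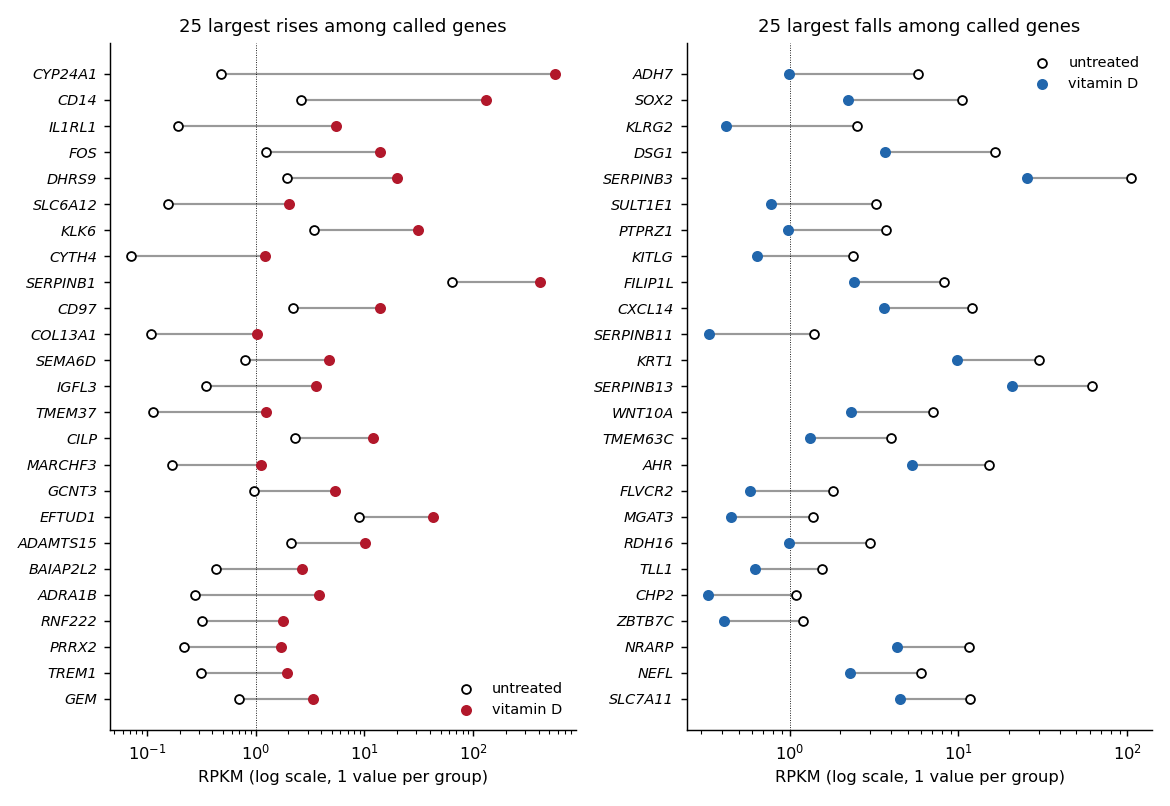
RPKM on a log scale in untreated cells (open points) and with vitamin D (filled points) for the 25 called genes with the largest deposited rises (left) and the 25 with the largest falls (right), 1 value per group. The dotted line marks 1 RPKM, which IL1RL1, SLC6A12 and CYTH4 crossed upwards and KLRG2, SULT1E1 and KITLG downwards.

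At a level of 1 RPKM, 42 genes rose from below to above with a change of at least 2-fold, and 21 fell from above to below. The former were members only through their vitamin D value and the latter only through their untreated value. COL13A1, a transmembrane collagen gene, stood at 0.108 and 1.03 RPKM. TMEM37, a membrane protein gene, stood at 0.112 and 1.25 RPKM, BAIAP2L2, a membrane curvature gene, at 0.429 and 2.67 RPKM, and the growth factor gene BMP6 at 0.884 and 3.71 RPKM. Downwards, ADH7, a dehydrogenase of retinol and ethanol, stood at 5.75 and 0.989 RPKM, and SULT1E1, the estrogen sulfotransferase gene, at 3.26 and 0.778 RPKM. PTPRZ1, a receptor phosphatase gene, stood at 3.71 and 0.973 RPKM. KITLG, which encodes the ligand of the receptor KIT, stood at 2.37 and 0.646 RPKM, and TLR5, the flagellin receptor gene, at 1.32 and 0.468 RPKM.

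In absolute amounts, genes raised at least 2-fold made up 16.2% of the RPKM gained by all genes called higher. After CYP24A1, the largest gains were those of the actin gene ACTG1, from 1001 to 1499 RPKM, the keratin gene KRT19, from 1581 to 2059 RPKM, the actin gene ACTB, from 1781 to 2236 RPKM, and the tropomyosin gene TPM4, from 397 to 825 RPKM. SERPINB1 followed, from 64.0 to 407 RPKM, and the syndecan gene SDC1, from 701 to 992 RPKM, was also among the 10 largest. The largest loss among called genes was KRT14, the basal keratin gene, from 7430 to 5850 RPKM. The small proline-rich genes SPRR1A, from 1256 to 932 RPKM, and SPRR3, from 1107 to 830 RPKM, and the stress protein gene HSPB1, from 2317 to 1889 RPKM, also fell. The 3 most abundant keratins, KRT6A at 16009 and 14855 RPKM, KRT17 at 14930 and 14799 RPKM and KRT5 at 10444 and 9935 RPKM, did not pass the threshold.

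Of 20 tested keratins 10 rose and 5 fell, with a median of 0.10. Across all tested genes 21.5% were higher and 17.9% lower, the shares to set beside each list here. KRT4 and KRT13 are the keratin pair of stratified mucosa. KRT4 went from 64.3 to 242 RPKM and KRT13 from 202 to 254 RPKM. The epidermal pair fell, KRT1 from 29.9 to 9.87 RPKM and KRT10 from 103 to 41.4 RPKM. KRT10 overlaps TMEM99 on the other strand, so reads of the 2 genes may be mixed. Desmosome genes had 6 of 12 lower and 1 higher, with a median of -0.14: DSG1 stood at 16.4 and 3.68 RPKM, DSG3 at 437 and 279 RPKM, DSC2 at 214 and 139 RPKM and DSC3 at 156 and 101 RPKM, while the plakophilin gene PKP2 rose from 9.11 to 10.9 RPKM. Tight and adherens junction genes went more often the other way, 11 of 21 higher and 4 lower, with a median of 0.15. The claudin genes CLDN7, from 34.1 to 89.7 RPKM, and CLDN4, from 58.6 to 88.8 RPKM, and the cingulin gene CGN, from 9.33 to 13.5 RPKM, rose. CLDN1, another claudin gene, fell from 91.7 to 61.9 RPKM. CLDN7 overlaps C17orf81 on the other strand, so its reads may be mixed with that gene's.

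Of 11 tested kallikreins, serine proteases of stratified epithelia encoded side by side on chromosome 19, 7 rose and 0 fell, with a median of 0.33. KLK5 went from 141 to 217 RPKM, KLK7 from 140 to 211 RPKM and KLK13 from 8.71 to 16.4 RPKM. Serpin and other inhibitor genes were split, 14 of 34 higher (41.2%) and 13 lower (38.2%). For all tested genes these shares were 21.5% and 17.9%. SERPINB9, a granzyme B inhibitor gene whose start lies 61.5 kb from that of SERPINB1 on chromosome 6, went from 2.29 to 5.85 RPKM. Of the clade B serpins of chromosome 18, 3 were among the genes lowered at least 2-fold: SERPINB3 from 106 to 25.6 RPKM, SERPINB13 from 62.2 to 20.7 RPKM and SERPINB11 from 1.40 to 0.334 RPKM. The reads of SERPINB3 may be shared with its close copy SERPINB4, so its value is uncertain.

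Neighbouring genes changed at least 2-fold went the same way. There were 12 pairs of such genes with starts within 100 kb of each other, and in 12 of 12 both members had the same direction. With 150 of 206 such genes raised, many pairs would be alike by number alone, and no test was made. They included IL1RL1 and IL18R1, both receptor genes of the interleukin-1 family, with starts 25.4 kb apart, and CD14 and APBB3, 69.1 kb apart. TGFB1, TMEM91 and B3GNT8 made 3 pairs on chromosome 19.

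Growth factor and signalling lists differed in direction, beside 21.5% of all tested genes higher and 17.9% lower. Of 24 tested genes of the TGF-beta and BMP pathway, which restrains epithelial growth and directs differentiation, 13 rose and 6 fell, with a median of 0.14. The ligand genes TGFB1, from 29.6 to 74.1 RPKM, TGFB2, from 4.42 to 9.71 RPKM, BMP2, from 4.74 to 13.9 RPKM, and BMP6 rose, as did the target gene ID1, from 150 to 303 RPKM. BMP6 overlaps TXNDC5 on the other strand, so its value is uncertain. MAP kinase phosphatase and Sprouty genes, which damp growth factor signals, had 6 of 12 higher and 1 lower, with a median of 0.23. DUSP5 went from 13.3 to 26.1 RPKM and DUSP4 from 3.03 to 5.07 RPKM. DUSP14 fell from 41.6 to 25.2 RPKM. AP-1 and immediate early genes had 13 of 23 higher and 6 lower, with JUNB at 114 and 191 RPKM and the stress factor gene ATF3 lower at 15.6 and 8.62 RPKM. The EGF receptor family and ligands were even, 4 higher and 4 lower of 13, though AREG, an EGF receptor ligand gene, went from 2.53 to 6.59 RPKM. Wnt and Notch genes had 7 higher and 10 lower of 25. The ligand gene WNT10A fell from 7.04 to 2.32 RPKM, WNT4 from 2.28 to 0.921 RPKM and the Notch feedback gene NRARP from 11.6 to 4.35 RPKM.

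**Figure D4:**
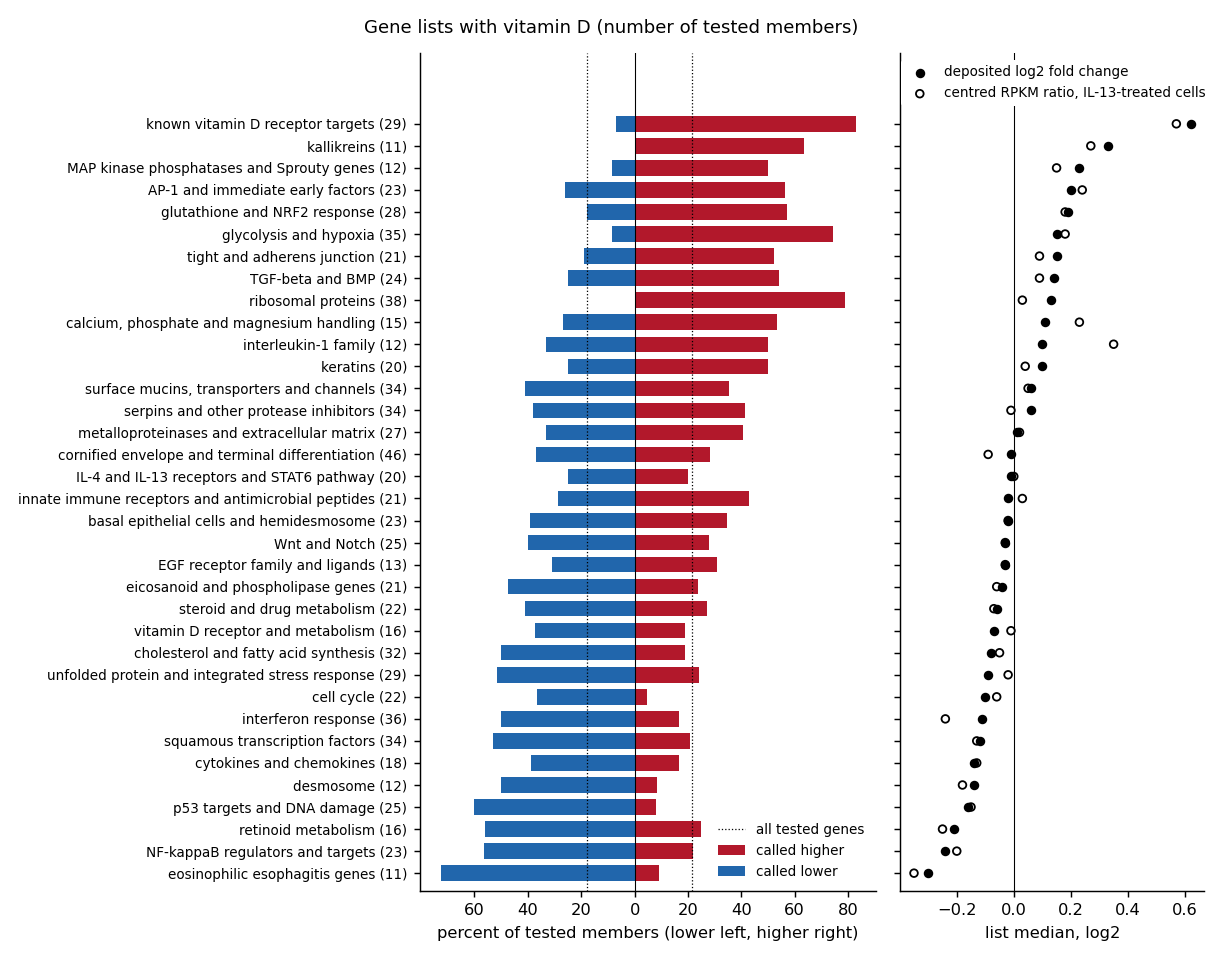
Left, percent of the tested members of each gene list called higher (red, right) or lower (blue, left), with dotted lines at 21.5% and 17.9% for all tested genes. Right, each list's median deposited log2 fold change (filled) and its median log2 RPKM ratio in IL-13-treated cells centred on all tested genes (open), for lists with at least 10 tested members, where known VDR targets stand highest.

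Metabolic lists moved by small amounts across many members, beside 21.5% of all tested genes higher and 17.9% lower. Of 35 tested genes of glycolysis and the hypoxia response, 26 rose and 3 fell, with a median of 0.15. The phosphofructokinase gene PFKP went from 67.6 to 110 RPKM, the hexokinase gene HK1 from 65.0 to 93.3 RPKM, PFKFB4, which sets the level of a glycolytic activator, from 6.67 to 11.4 RPKM, and the carbonic anhydrase gene CA12 from 43.2 to 78.3 RPKM. Glutathione and NRF2 response genes had 16 of 28 higher and 5 lower, with a median of 0.19. TXNRD1 went from 36.6 to 91.9 RPKM. SLC7A11, the cystine importer of the same list, fell from 11.8 to 4.51 RPKM. Cholesterol and fatty acid synthesis genes had 16 of 32 lower and 6 higher, with a median of -0.08. Ribosomal protein genes had 30 of 38 higher and 0 lower, at a median of 0.13, which was 0.07 as a log2 ratio of RPKM with 0.1 added to each value.

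Retinoid and steroid enzymes showed changes in both directions, beside 21.5% of all tested genes higher and 17.9% lower. Of 16 tested retinoid genes 4 rose and 9 fell, with a median of -0.21. DHRS9 rose, while ADH7, the retinol dehydrogenase gene RDH16, from 3.0 to 0.996 RPKM, RDH12, from 20.9 to 12.9 RPKM, and the retinol esterifying enzyme gene LRAT, from 1.27 to 0.584 RPKM, fell. Among steroid and drug metabolism genes 6 of 22 rose and 9 fell. HSD17B2, which inactivates estradiol, went from 7.01 to 20.7 RPKM, and CYP4F3, a leukotriene hydroxylase gene, from 1.76 to 5.10 RPKM. TSC22D3, the glucocorticoid-induced gene, fell from 90.3 to 38.0 RPKM, and AHR, the aryl hydrocarbon receptor gene, from 15.3 to 5.31 RPKM.

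The p53, stress response, NF-kappaB, interferon and cytokine lists each had more members lower than higher, and the interleukin-1 family did not. Over all tested genes 21.5% rose and 17.9% fell. Of 25 tested p53 targets and DNA damage genes 2 rose and 15 fell, with a median of -0.16, including the pro-apoptotic genes BBC3, from 5.21 to 3.01 RPKM, and PMAIP1, from 13.4 to 8.92 RPKM. Genes of the unfolded protein and integrated stress responses had 15 of 29 lower and 7 higher, with a median of -0.09. DDIT3 went from 38.3 to 20.4 RPKM, CHAC1, a glutathione-degrading enzyme gene, from 45.4 to 26.7 RPKM and the pseudokinase gene TRIB3 from 61.2 to 36.5 RPKM. The chaperone gene DNAJB1 rose from 163 to 248 RPKM. NF-kappaB regulators and targets had 13 of 23 lower and 5 higher, with a median of -0.24. The apoptosis inhibitor gene BIRC3 fell from 4.13 to 1.60 RPKM, and NFKBIA of the same list rose from 87.5 to 133 RPKM. Interferon response genes had 18 of 36 lower and 6 higher, with a median of -0.11. Cytokine and chemokine genes had 7 of 18 lower and 3 higher. The chemokine gene CXCL14 fell from 12.1 to 3.62 RPKM and IL8 from 11.3 to 6.94 RPKM. Interleukin-1 family genes had 6 of 12 higher and 4 lower, with IL1B higher at 89.8 and 171 RPKM and IL36G lower at 15.3 and 8.61 RPKM. Cell cycle genes had 8 of 22 lower and 1 higher, CDC20, a mitotic activator gene, at 1.06 and 3.03 RPKM.

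Squamous transcription factors and genes linked to eosinophilic esophagitis also fell more often than they rose. Of 34 tested factors 18 fell and 7 rose, with a median of -0.12. SOX2, a factor of esophageal progenitors, stood at 10.5 and 2.22 RPKM, BCL11B at 3.05 and 1.49 RPKM, OVOL2 at 9.18 and 5.51 RPKM and TP63, the master factor of stratified epithelia, at 50.7 and 37.6 RPKM. Of 11 tested esophagitis-linked genes 8 fell and 1 rose, with a median of -0.30. ANO1, a chloride channel gene, fell from 7.31 to 4.53 RPKM, and CAPN14, an esophageal calpain gene, rose from 10.2 to 14.9 RPKM. Of 20 tested genes of IL-4 and IL-13 signalling 4 rose (20%) and 5 fell (25%), near the 21.5% and 17.9% of all tested genes. The receptor gene IL4R rose from 38.3 to 60.8 RPKM and the phosphatase gene PTPN1 from 27.1 to 48.5 RPKM, and STAT6 fell from 30.2 to 26.9 RPKM. Cornified envelope genes were split, 13 higher and 17 lower of 46, with the repetin gene RPTN at 5.77 and 12.9 RPKM and the transglutaminase gene TGM3 at 16.4 and 8.58 RPKM.

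The 6 libraries of IL-13-treated cells gave a second reading of vitamin D. The log2 ratio of RPKM with both agents over IL-13 alone, with 0.1 added to each value, was above 0 for 150 of the 150 genes raised at least 2-fold and below 0 for 55 of the 56 lowered at least 2-fold. Among genes raised less, 1988 of 2299 (86.5%) had the same sign, and among genes lowered less 1884 of 1977 (95.3%). Of genes not called, 37.0% had a ratio above 0, so the ratios as a whole ran low. Centred on the median, the same sign was seen for 91.7% of genes raised less and 92.3% of genes lowered less. The sizes were close: the median was 1.42 in the authors' deposited table and 1.28 in IL-13-treated cells for the first class, and -1.28 and -1.13 for the second. The measures differ, since without IL-13 the deposited value ran above the RPKM ratio by a median of 0.057. The classes were also chosen by the deposited value alone, which favours a larger size there. A change of at least 2-fold in the same direction was seen in IL-13-treated cells for 109 of the 150 (72.7%) and 36 of the 56 (64.3%). Conversely, these made up 84.5% of the 129 tested genes that were at least 2-fold higher there and 53.7% of the 67 at least 2-fold lower. The membership rule leaves out genes that reached 1 RPKM only in IL-13-treated cells, which may raise these shares. This reading has no test, since each group gave 1 value.

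**Figure D5:**
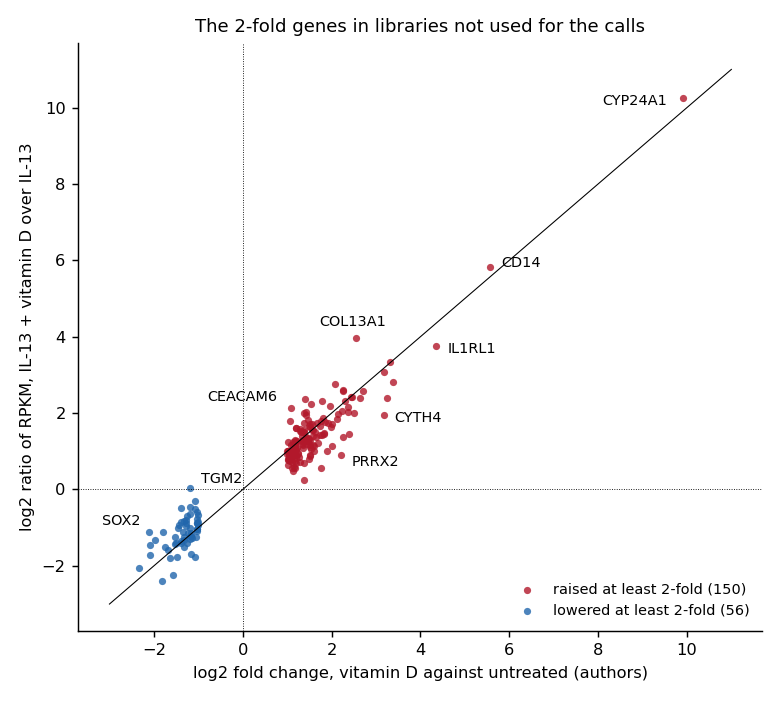
Log2 ratio of RPKM with IL-13 and vitamin D over IL-13 alone (0.1 added to each value) against the authors' log2 fold change for vitamin D against untreated, for the 150 genes raised and 56 lowered at least 2-fold, 1 point per gene, with a line of equal change. One gene, TGM2, lies across the horizontal line at 0, and COL13A1 and PRRX2 lie farthest from the line of equal change.

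CYP24A1 stood at 0.281 RPKM with IL-13 and at 463 RPKM with both, and CD14 at 3.67 and 215 RPKM. Both were far higher with vitamin D whether or not IL-13 was present. TGM2, a transglutaminase gene, was the exception in sign. It went from 6.56 to 2.77 RPKM with vitamin D alone and stood at 14.6 and 15.0 RPKM without and with vitamin D in IL-13-treated cells. COL13A1 showed a larger ratio there, 3.96 against 2.43 without IL-13 on the same RPKM scale, with 0.344 and 6.79 RPKM. CEACAM6 stood at 3.91 and 17.5 RPKM there, a ratio of 2.13 against 1.03. PRRX2, a homeobox gene, showed a smaller one, 0.91 against 2.50, and SOX2 -1.11 against -2.19, with 15.6 and 7.15 RPKM. These genes were singled out for their differences, so the differences are a description and were not tested.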

How the data were processed

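RNA and ChIP-seq libraries of EPC2 cells were used as the authors' deposited tables. The RNA tables hold RPKM, 1 value per gene and group, log2 fold changes and p-values with adjusted p-values, per the file headers; no source used here names the test behind them. Adjusted p-values below 1 equal Benjamini-Hochberg values over 15177 genes (largest difference 3.5e-07), and genes listed at 1 were treated as not tested. The peak lists hold pileup (a signal), fold enrichment (a ratio) and -log10 q, deposited by the authors. The submitters' processing notes name Trim Galore, STAR, SAMtools, Bowtie, MACS2, GRCh37 and hg19, with roles not given. RPKM gives no depth.

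Computed here with Python 3.11.15 (pandas 2.3.3, scipy 1.17.1) were counts of called genes (adjusted p at most 0.05, at least 1 RPKM in either group), log2 ratios of RPKM plus 0.1 (the IL-13 values come from other deposited tables, whose untreated RPKM column is identical), medians of 40 gene lists, distances from gene starts to peaks and their Wilson intervals. Peak summits with a shared start and end were merged, and gene starts off the main chromosomes were left out of distances. Symbols turned into dates were restored for 16 members by RefSeq accession. Named genes were the 25 largest rises and falls, the 10 largest RPKM gains and losses, up to 12 crossing 1 RPKM each way, up to 5 called members per list, the 10 highest in untreated cells and a few pathway and marker genes; TXNIP, TGM2, B9D2, MEGF6, BGLAP, PMF1-BGLAP, TMEM99, C17orf81, TXNDC5, VIM, APBB3, TMEM91, B3GNT8 and PTPRC were added after their values were seen. Members and lists were chosen with earlier results of these data known. Counting functions were tested on simulated data. Other thresholds, pseudocounts and windows were tried.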

Additional observations from a re-analysis of the deposited data

How the results depend on the processing

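No paired analysis was possible because the RNA tables hold 1 value per group, and for the same reason no replicate could be left out. Counts of called genes stayed within 1.5 times under a minimum of 5 RPKM, no minimum and an adjusted p of 0.01. Genes changed at least 2-fold numbered 89 higher and 29 lower with the log2 ratio of RPKM plus 1 in place of the deposited value, and 96 and 24 at 5 RPKM or more; the other settings stayed within 1.5 times. The pseudocount of 1 compresses low genes by construction. VDR regions lay near 46.7% of genes raised at least 2-fold and 10.5% of genes not called within 5 kb. Within 100 kb they lay near 95.3%, 57.4% and, for genes lowered at least 2-fold, 41.1%. At fold enrichment 10 or more they lay within 25 kb of 47.3%, 6.15% and 3.57%. For H3K27ac regions of vitamin D alone, 5 kb gave 24% of genes raised at least 2-fold and 3.35% of genes not called. Genes raised at least 2-fold had the highest share in each of these settings, whereas for H3K27ac at 5 kb genes lowered at least 2-fold (5.36%) stood above genes not called. The median of the metalloproteinase and matrix list went from 0.01 to -0.03 as a centred RPKM ratio; the cause was not tested. No called gene changed sign as an RPKM ratio with 0.1 added. That ratio ran below the deposited value, with a median of -0.053 over tested genes. Without spread between samples, the precision of single genes cannot be judged here.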
